A study of Rattus norvegicus with 8 samples.

Results

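The genes described here encode receptors for glutamate, GABA, glycine, acetylcholine, serotonin, dopamine and noradrenaline. The rule for them uses symbols and no measured value, and they are read by 133 probe sets for 88 genes among the 8799 probe sets of an Affymetrix rat array of the U34 set. The symbols begin with Gria, Grid, Grik, Grin, Grm, Gabr, Glra, Glrb, Chrn, Chrm, Htr, Drd, Adra or Adrb. Grina matches the glutamate rule by name, although its product is an NMDA receptor-associated membrane protein and not a channel subunit. It is counted with the glutamate genes here, and counts that rest on it name it. Receptors whose symbols do not begin this way, such as the GABA-B receptors, were not counted.

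RNA came from rat embryos at embryonic stage E12.5, and the aim of the series was to find genes downstream of the transcription factor Pax6. The 4 groups were forebrain of embryos labelled Pax6 homozygous, forebrain of wild-type embryos, hindbrain of Pax6 homozygous embryos and hindbrain of wild-type embryos, with 2 arrays each. The labels do not name the Pax6 allele or the strain. Because the head was divided at the isthmus, the forebrain part also carried the midbrain and the primordia of the eye and nose, and the hindbrain part carried the pharyngeal arches. Whether both arrays of a group stem from separate embryos or litters is not stated in the sources used here. The p-values thus measure array-to-array spread only, and this spread may be technical. In bulk tissue, fewer cells of a type and less RNA per cell cannot be told apart.

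Ionotropic receptors are channels built of several subunits that open when the transmitter binds, and metabotropic receptors signal through G proteins. AMPA, kainate and NMDA receptors are the ionotropic receptors of glutamate. The GABA-A, glycine and nicotinic acetylcholine receptors and the 5-HT3 receptor share a pentameric plan. In the embryonic neural tube most cells still divide, synapses are rare, and some of these receptors are known to respond to transmitter outside synapses before circuits form.

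The deposited value of a probe set was 1 intensity on a linear scale, and many values were negative. The noise level of an array was therefore taken as the size of the 5th percentile of its intensities, which lay between 243.3 and 619.8, and a probe set counted as above noise where it exceeded that level. Levels of different probe sets depend on their probes and are not compared with each other. Across probe sets, log2 values of paired arrays within each group had r from 0.899 to 0.947, and between 48.8% and 61.2% of all probe sets were above noise on an array. Pax6 itself was read by 1 probe set, at 1243 and 927 in Pax6 homozygous forebrain against 1197 and 636 in wild-type forebrain, and at 1194 and 1111 in Pax6 homozygous hindbrain against 827 and 531 in wild-type hindbrain. Which part of the transcript it covers relative to the mutation was not given, so it checks nothing about the genotype labels.

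3 nicotinic subunit genes, Chrna5, Chrna3 and Chrnb4, lie next to each other on rat chromosome 8 between Psma4 and Ube2q2, and their products assemble into the nicotinic receptors of autonomic ganglia. Their promoters are shown because Chrna3 had the smallest p-value between the regions among all receptors. Chrnb4 was above noise on all arrays with 1 of its 2 probe sets, and Chrna5 on none. The stretches run from 250 bases before to 50 bases after each gene's start in RefSeq (GRCr8), at chr8:64265629-64265928 on the plus strand for Chrna5, chr8:64311202-64311501 on the minus strand for Chrna3 and chr8:64333060-64333359 on the minus strand for Chrnb4. Capitals mark the GC box letters GGGCGG on either strand.
Chrna5: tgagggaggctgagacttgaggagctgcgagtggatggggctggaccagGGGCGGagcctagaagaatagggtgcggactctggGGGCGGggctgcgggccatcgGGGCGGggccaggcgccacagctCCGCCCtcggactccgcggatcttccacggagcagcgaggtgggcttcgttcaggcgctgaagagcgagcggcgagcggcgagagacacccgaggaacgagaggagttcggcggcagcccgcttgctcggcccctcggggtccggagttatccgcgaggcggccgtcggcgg
Chrna3: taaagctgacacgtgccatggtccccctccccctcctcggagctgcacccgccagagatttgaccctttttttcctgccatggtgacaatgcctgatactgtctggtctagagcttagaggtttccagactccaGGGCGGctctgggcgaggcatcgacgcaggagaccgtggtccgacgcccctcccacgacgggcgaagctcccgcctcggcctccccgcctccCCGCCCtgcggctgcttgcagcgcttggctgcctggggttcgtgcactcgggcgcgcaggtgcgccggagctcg
Chrnb4: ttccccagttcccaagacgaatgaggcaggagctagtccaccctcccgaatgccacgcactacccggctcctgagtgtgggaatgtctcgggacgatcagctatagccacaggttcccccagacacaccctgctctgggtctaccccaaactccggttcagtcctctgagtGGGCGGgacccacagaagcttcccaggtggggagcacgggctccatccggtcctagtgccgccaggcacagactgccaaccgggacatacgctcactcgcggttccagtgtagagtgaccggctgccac
The GC box letters occurred 4 times in the Chrna5 window, 2 times in that of Chrna3 and 1 time in that of Chrnb4, and 33.1% of 33469 promoters of this length hold them. E-box letters, CANNTG, occurred 0 times for Chrna5, 2 times for Chrna3 and 1 time for Chrnb4, and 72.1% of promoters hold them. G and C made up 71.3% of the Chrna5 window, 66.7% of the Chrna3 window and 62.3% of the Chrnb4 window. These are matches of letters and say nothing about binding.

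At this stage most receptor transcripts were not read above noise. Of the 133 receptor probe sets, 16 exceeded noise on all 8 arrays, which is 12% beside 42.8% of all probe sets that are no array controls. Another 76, or 57.1%, exceeded it on no array, beside 34.2% of all probe sets. By gene, 15 of 88 had a probe set above noise on all 8 arrays, 33 reached it on 1 to 7 arrays at most and 40 on none. The count of 16 became 9 with noise at the 2.5th percentile and 32 with noise at the 10th. The 40 genes include all those for glycine receptor alpha subunits on the array (Glra1, Glra2 and Glra3), and Gria1, Gria3 and Gria4, which encode AMPA subunits. An intensity below noise means only that the transcript was not detectable with these probes.

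Some receptor probe sets stood as steadily on the other side of zero. 7 receptor probe sets, 5.26%, lay below the negative of the noise level on all 8 arrays, beside 2.13% of all probe sets. They belonged to Chrm1, Drd2, Gabrr2, Grik3, Adra1d, Adra2a and Htr4, and the lowest was Adra2a (U79031_at), between -2817 and -616. At 3 times the noise level no receptor probe set lay below on all arrays, beside 0.206% of all probe sets, and 7 (5.26%) lay above, beside 27.2% of all. Those 7 read Chrng, Chrnb4, Drd3, Grin1, Adra1d and, with both of its probe sets, Grina. The other 9 of the 16 were closer to noise on at least 1 array.

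**Figure D1:**
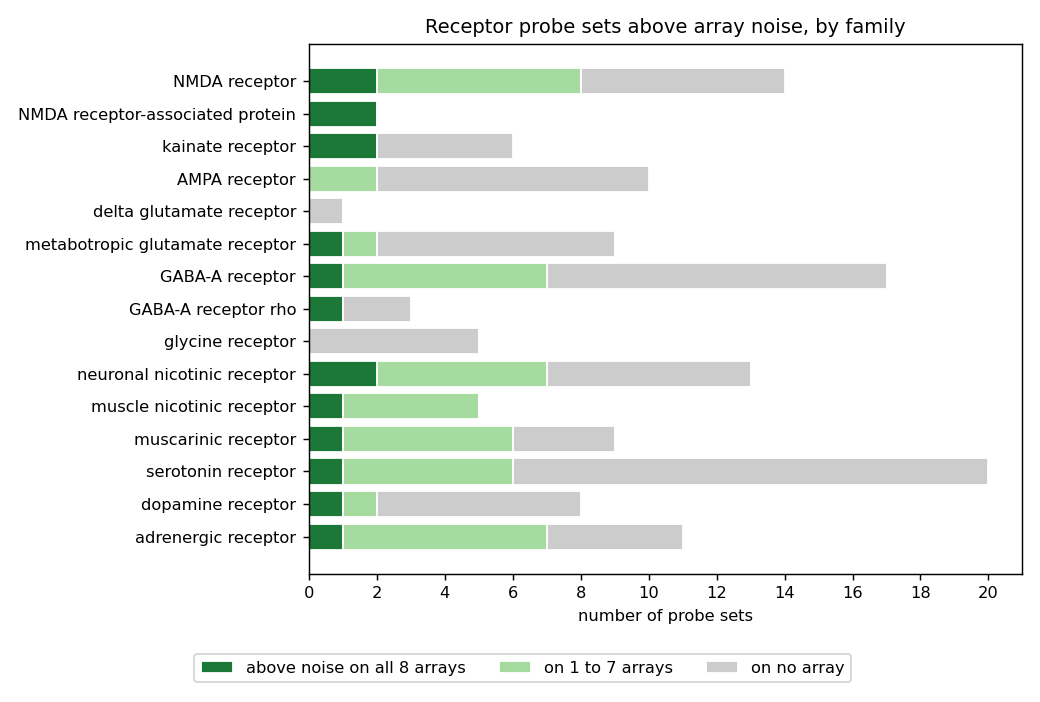
Number of receptor probe sets per family (horizontal axis), split by the number of arrays on which they exceeded array noise: all 8 (dark green), 1 to 7 (light green) or none (grey). The glycine receptor and delta receptor rows are all grey, 8 of 10 AMPA probe sets are grey, and both Grina probe sets are dark green.

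Glutamate receptors were read by 42 probe sets for 24 genes, of which 7 probe sets were above noise on all arrays and 26 on none. Without the 2 Grina probe sets, 5 of 40 glutamate probe sets and 14 of 131 receptor probe sets (10.7%) were above noise on all arrays. Each of the 6 NMDA receptor subunit genes was above noise on at least 1 array. Grin1, the obligatory subunit, was at 4755 and 3353 in Pax6 homozygous forebrain against 4186 and 3790 in wild-type forebrain, and at 2998 and 2903 in Pax6 homozygous hindbrain against 4317 and 2627 in wild-type hindbrain (S39221_g_at). All 8 values were at least 6.97 times their array's noise, and the genotypes overlapped within each region. Both Pax6 homozygous hindbrain values were below all 4 forebrain values, while wild-type hindbrain overlapped both forebrain groups. Grin2b, the glutamate-binding subunit typical of embryonic brain, was at 1285 and 581 in Pax6 homozygous forebrain against 1092 and 431 in wild-type forebrain. In hindbrain it was at 1031 and 884 in the Pax6 homozygous group against 1499 and 557 in the wild-type group. The first array of every group was above all 4 second arrays for Grin2b, so its values moved with array number. Grin2a, Grin2c, Grin2d and Grin3a were above noise on 2 to 5 arrays at best.

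Grina was above noise on all arrays with both probe sets, by 8.13 to 27.9 times for S61973_g_at and by 6.02 to 24.0 times for S61973_at. With S61973_g_at it was at 4259 and 4584 in Pax6 homozygous forebrain against 4848 and 5250 in wild-type forebrain, and at 5293 and 4694 in Pax6 homozygous hindbrain against 6002 and 7564 in wild-type hindbrain. Within each region both Pax6 homozygous arrays were below both wild-type arrays, while the genotypes overlapped across regions. The second probe set gave 3153 and 4983 in Pax6 homozygous forebrain against 4840 and 5238 in wild-type forebrain, and 5010 and 4264 in Pax6 homozygous hindbrain against 5290 and 6487 in wild-type hindbrain.

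Among kainate receptors, Grik5 and 1 of the 2 Grik4 probe sets were above noise on every array, and Grik1, Grik2 and Grik3 on none. Grik4 and Grik5 are the high-affinity subunits that need a partner of the Grik1 to Grik3 group to form channels. The other Grik4 probe set (X59996mRNA_s_at) lay between -467 and -53. Grik5 was at 1760 and 1467 in Pax6 homozygous forebrain against 1986 and 1527 in wild-type forebrain, and at 950.4 and 1017 in Pax6 homozygous hindbrain against 1928 and 1115 in wild-type hindbrain. All hindbrain values of Grik5 but that of the first wild-type array were below all forebrain values. Grik4 (U08257_at) was at 1077 and 574 in Pax6 homozygous forebrain against 927 and 399 in wild-type forebrain, and at 737 and 449.8 in Pax6 homozygous hindbrain against 1319 and 570.4 in wild-type hindbrain. Grik4 was thus higher on all first than on all second arrays. The 8 undetected AMPA probe sets ranged from -607 to 546, and Gria2, whose edited form keeps calcium out of AMPA channels, passed noise on 1 array with each of its 2 probe sets. Among metabotropic receptors Grm4, a presynaptic receptor of group III, was at 1725 and 971 in Pax6 homozygous forebrain against 918 and 1566 in wild-type forebrain. In hindbrain Grm4 was at 2058 and 889 in the Pax6 homozygous group against 1854 and 1193 in the wild-type group, and the groups overlapped. The other 8 metabotropic probe sets included 7 above noise on no array, and Grm6 passed on 2. The delta receptor Grid1 was below noise throughout.

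GABA receptors were read by 20 probe sets for 15 genes, and 2 probe sets were above noise on all arrays. Gabrd, a subunit of extrasynaptic GABA-A receptors, was at 837 and 698 in Pax6 homozygous forebrain against 896 and 601 in wild-type forebrain, and at 923 and 572 in Pax6 homozygous hindbrain against 994 and 495 in wild-type hindbrain (M35162_at). Gabrr1, a rho subunit known from retina, was at 1121 and 663 in Pax6 homozygous forebrain against 999 and 703 in wild-type forebrain, and at 794 and 595 in Pax6 homozygous hindbrain against 1379 and 662 in wild-type hindbrain. For both genes every first array was above every second one, and both stayed under 2.5 times noise. Gabrg1 exceeded noise on 7 arrays, Gabra2 on 5, and both Gabrb2 probe sets and Gabre on 2. All 5 glycine receptor probe sets remained between -387 and 422.

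Acetylcholine receptors had the lowest share of undetected probe sets of the transmitters, 33.3% of 27, near the 34.2% of all probe sets. Of the 27, 4 (14.8%) were above noise on all arrays, beside 42.8% of all. Chrng encodes the gamma subunit of the fetal muscle receptor, which the epsilon subunit replaces after birth. It was at 1916 and 1197 in Pax6 homozygous forebrain against 2059 and 1409 in wild-type forebrain, and at 2131 and 1554 in Pax6 homozygous hindbrain against 2214 and 1372 in wild-type hindbrain. The forebrain and hindbrain values overlapped, and all first arrays were above all second arrays. The epsilon gene Chrne passed noise on 1 array, as did Chrnd, and Chrna1 and Chrnb1 passed on 2. Skeletal muscle markers differed between the regions. Of 12 tested probe sets of that list, 3 had an adjusted p under 0.05 in limma, beside 1.51% of all. These were lower in forebrain: 2 of the 4 tested for Myh3 (M12098_s_at and X04267_at), and Acta1. A negative log2 difference, lower in forebrain, was found for 11 of the 12, beside 53.2% of all probe sets tested. The list's summed intensity was 6044 and 4067 in Pax6 homozygous forebrain and 6677 and 4490 in wild-type forebrain, against 20668 and 16908 in Pax6 homozygous hindbrain and 21378 and 18285 in wild-type hindbrain, with Ckm and Myf6 never above noise.

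Of the neuronal nicotinic probe sets, that of Chrnb2 and 1 of the 2 for Chrnb4 were above noise on all arrays. The other Chrnb4 probe set (J05232cds_s_at) lay between -733 and -31. Chrnb4 (U42976_at) was at 2056 and 2128 in Pax6 homozygous forebrain against 2775 and 1371 in wild-type forebrain, and at 2045 and 1484 in Pax6 homozygous hindbrain against 2584 and 1385 in wild-type hindbrain. Chrnb2, which joins Chrna4 in the common brain receptor, was at 1454 and 346 in Pax6 homozygous forebrain against 1160.2 and 1057 in wild-type forebrain. In hindbrain Chrnb2 was at 845 and 645 in the Pax6 homozygous group against 1343 and 893 in the wild-type group. No group stood clear of the others for either gene. Of the alpha subunits, Chrna3 and 1 probe set of Chrna7 exceeded noise on 6 arrays, Chrna4 on 5 and Chrna2 on 1, while Chrna5, Chrna6, Chrna9 and Chrnb3 exceeded it on none.

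Among muscarinic receptors Chrm5 was above noise throughout, at 932 and 542 in Pax6 homozygous forebrain against 590 and 719 in wild-type forebrain, and at 1158 and 580.2 in Pax6 homozygous hindbrain against 806 and 599.7 in wild-type hindbrain. Its lowest value was 1.07 times noise. Both probe sets of Chrm2, the receptor that slows the heart, agreed in exceeding noise on most arrays, 7 and 6 of 8. Chrm3, which acts through phospholipase C, passed on 5 with one probe set and 1 with the other. Chrm1 was below noise with both.

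Receptors for dopamine, noradrenaline and serotonin follow. Drd3, a D2-like dopamine receptor, was at 4006 and 3208 in Pax6 homozygous forebrain against 3880 and 4082 in wild-type forebrain, and at 3922 and 3503 in Pax6 homozygous hindbrain against 3994 and 3724 in wild-type hindbrain (X53944_at). The 4 groups overlapped, and Drd1, Drd2 and Drd5 were never above noise. Adra1d, a Gq-coupled noradrenaline receptor, was at 2401 and 1570.2 in Pax6 homozygous forebrain against 2367 and 1487 in wild-type forebrain. In hindbrain Adra1d was at 2344 and 2003 in the Pax6 homozygous group against 2452 and 2149 in the wild-type group. Of 11 noradrenaline receptor probe sets 4 (36.4%) were above noise on no array, beside 34.2% of all probe sets. Adra1b and Adra2b exceeded noise on 5 arrays and Adra2a on 7 and 6 with a pair of probe sets. Htr3a, the channel subunit among serotonin receptors, was at 1012 and 719.7 in Pax6 homozygous forebrain against 920.4 and 706 in wild-type forebrain, and at 1393 and 936 in Pax6 homozygous hindbrain against 908 and 1056 in wild-type hindbrain. For Htr3a no group stood clear of all others. Htr1d was above noise on 6 arrays and Htr5a on 5, and 14 of 20 serotonin probe sets on none.

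Probe sets of one gene often disagreed. Of 33 receptor genes with several probe sets, 8 had one above noise on all 8 arrays, and in 7 of these (87.5%) another probe set of the same gene was above noise on no array. Among other genes of the array this held for 245 of 983 (24.9%). The 7 genes were Adra1d, Chrnb4, Drd3, Gabrd, Grik4, Grin1 and Htr3a, and Grina alone agreed. The 3 further probe sets of Grin1 were above noise on no array, and the other Adra1d probe set (M60654_at) lay between -2083 and -414. Which transcripts these probe sets match was not tested, so a level above noise for these 7 genes rests on 1 probe set each. Adra2a had 2 probe sets above noise on 7 and 6 arrays and another below the negative noise level on all 8.

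**Figure D2:**
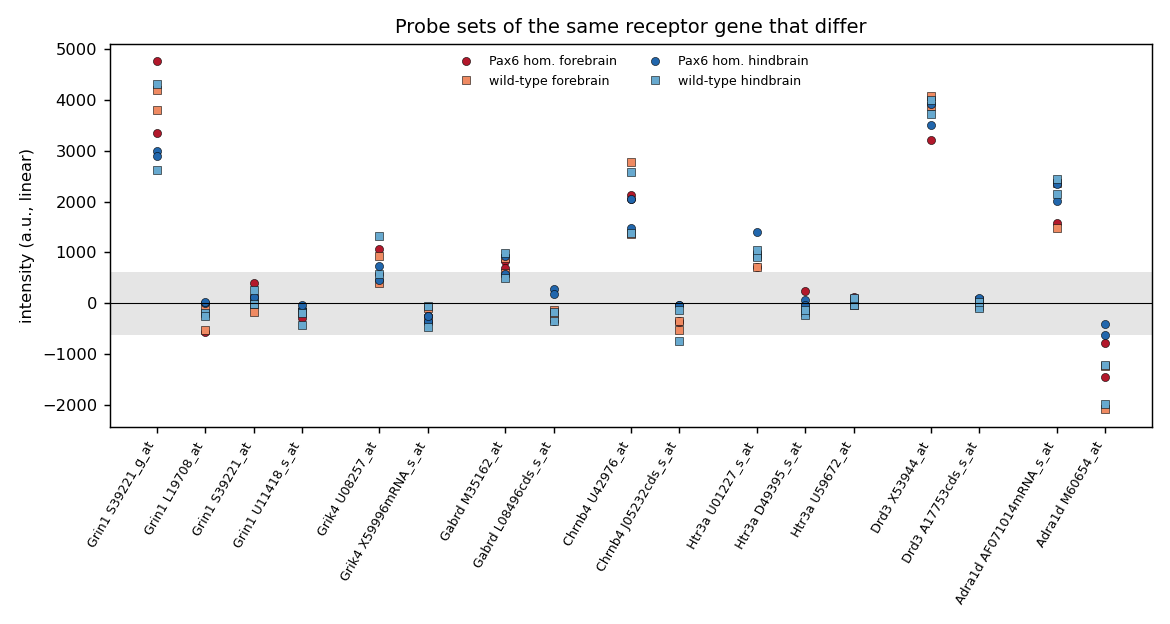
Intensity (vertical axis, linear, arbitrary units) on each of the 8 arrays for all probe sets of the 7 genes in which one probe set was above noise on all arrays and another on none; colours and symbols give the group, and the grey band spans plus and minus the highest noise level, 619.8. The Drd3 points lie near 3208 to 4082 with one probe set and near 0 with the other.

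By region, no receptor passed the test. Forebrain minus hindbrain over both genotypes was fitted in limma with 5881 probe sets, 67 of them receptors, and 0 receptors had an adjusted p under 0.05, beside 1.51% of all probe sets tested. An unadjusted p under 0.05 was reached by 2 receptors (2.99%), beside 8.09% of all. All 4 forebrain arrays were below all 4 hindbrain arrays for 2 of the 67 tested receptors (2.99%), beside 4.37% of all tested. They were above them for 0, beside 2.28%. The median log2 difference was -0.04 over the receptors and -0.02 over all probe sets tested.

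Chrna3, the alpha subunit of ganglionic nicotinic receptors, had the smallest p. It was at 419 and 392 in Pax6 homozygous forebrain and 591 and 307 in wild-type forebrain, against 1026 and 1188 in Pax6 homozygous hindbrain and 1538 and 618 in wild-type hindbrain. The regions did not overlap, and Chrna3 was above noise on 2 of 4 forebrain and 4 of 4 hindbrain arrays. The log2 difference was -1.32 ± 0.38 (SE, limma adjusted p = 0.215). Its neighbour Chrnb4, whose promoter is printed above beside that of Chrna3, had a log2 difference of 0.15 with a 95% interval of -0.51 to 0.82. Chrna5, the third gene of the cluster, was too dim for the test and under noise on all arrays. It lay between -56 and 54 in forebrain and between 79 and 166 in hindbrain, so its regions did not overlap either.

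Neuron markers moved the same way as Chrna3. Of 15 tested neuron probe sets, 5 passed the threshold, lower in forebrain, beside 1.51% of all, and 13 had a negative log2 difference. The 5 read Nefl and Ina with 2 probe sets each, and Nefm, all neuronal intermediate filaments. The neuron list's summed intensity was 33204 and 36409 in Pax6 homozygous forebrain and 34718 and 32998 in wild-type forebrain, against 79700 and 81734 in Pax6 homozygous hindbrain and 104147 and 115685 in wild-type hindbrain, and each of its 8 genes was above noise on at least 1 array. In the autonomic, sensory and neural crest list 1 of 8 tested probe sets passed, and 7 of the 8 had a negative log2 difference. The 1 that passed was Prph, a filament of peripheral neurons, with a log2 difference of -2.61 ± 0.34 (limma adjusted p = 0.00576). That list summed to 2054 and 3081 in Pax6 homozygous forebrain and 1500 and 2525 in wild-type forebrain, against 6170 and 7947 in Pax6 homozygous hindbrain and 8938 and 9485 in wild-type hindbrain, and Dbh was never above noise. Their part in the Chrna3 difference was not tested.

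Gria2 was lower in forebrain on both probe sets without overlap, but almost wholly under noise. With M36419_s_at it was at 112 and 87 in Pax6 homozygous forebrain and -35 and 122 in wild-type forebrain, against 272 and 367 in Pax6 homozygous hindbrain and 458 and 229.7 in wild-type hindbrain, and the log2 difference was -1.90 ± 0.60 (limma adjusted p = 0.293). The next smallest p-values belonged to Grina, Chrm3, Grik2 and Chrna4. Grina differed by -0.30 ± 0.14 (S61973_g_at) and Chrm3 by -1.67 ± 0.80 (AB017656_s_at, above noise on 1 array), or -0.97 for Chrm3 without the first wild-type forebrain array. Grik2, never above noise, differed by 1.62 ± 0.79, and Chrna4, the main partner of Chrnb2, by -1.06 ± 0.52, or -0.64 without the first Pax6 homozygous forebrain array. The adjusted p of these 4 lay between 0.644 and 0.671. Over the 16 probe sets above noise on all arrays, the log2 differences between regions ran from -0.35 to 0.48 (Grik5, ± 0.24), with half-widths of the 95% interval between 0.31 and 1.02, so differences inside those widths were not resolved.

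**Figure D3:**
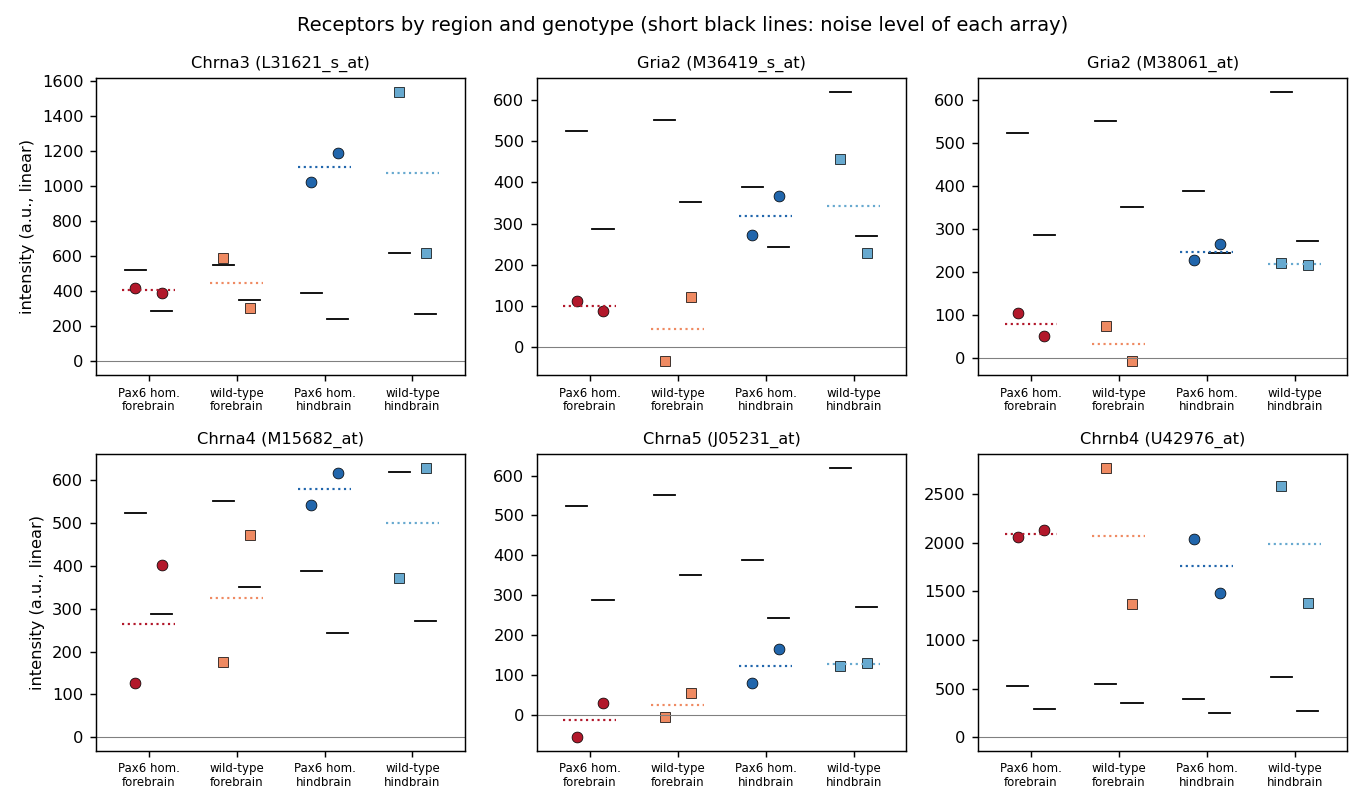
Intensity (vertical axis, linear, arbitrary units, scaled per panel) in the 4 groups for 6 nicotinic and AMPA probe sets; each point is an array, dotted lines are group means of 2 arrays and short black lines the noise level of that array. The Chrna3, Chrna5 and both Gria2 panels show all 4 hindbrain points above all 4 forebrain points. Most Gria2 points and all Chrna5 points are under the noise lines, and the Chrnb4 panel shows overlap.

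By genotype, 0 receptors passed in forebrain, in hindbrain or over both, beside 0.0170%, 0.0170% and 0.0340% of all 5881 probe sets, and 0 passed in the interaction, beside 0%. An unadjusted p under 0.05 was reached by 2 receptors in forebrain (2.99%, beside 2.92% of all), by 4 in hindbrain (5.97%, beside 4.49%), by 4 over both regions (5.97%, beside 5.02%) and by 2 in the interaction (2.99%, beside 1.90%). Median log2 changes, Pax6 homozygous minus wild-type, were -0.02 over receptors and 0.01 over all probe sets in forebrain. In hindbrain they were -0.14 over receptors and 0.04 over all. All 4 Pax6 homozygous arrays were above all 4 wild-type arrays for 1 receptor (1.49%, beside 2.38% of all), and below them for 3 (4.48%, beside 1.19%).

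For the 16 probe sets above noise on all arrays, log2 changes by genotype ran from -0.64 to 0.37 in forebrain and from -0.59 to 0.24 in hindbrain, with 95% half-widths between 0.44 and 1.44. Grina had the smallest p of them, with -0.31 ± 0.14 over both regions (S61973_g_at, 95% interval -0.62 to -0.01, limma adjusted p = 0.928) and -0.43 ± 0.19 in hindbrain, where it was -0.27 without the second wild-type array. The log2 change of Drd3 over both regions was -0.10, with a 95% interval of -0.43 to 0.22. The larger fitted changes belonged to probe sets above noise on fewer arrays, where the size of a change depends on the floor of the log scale.

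**Figure D4:**
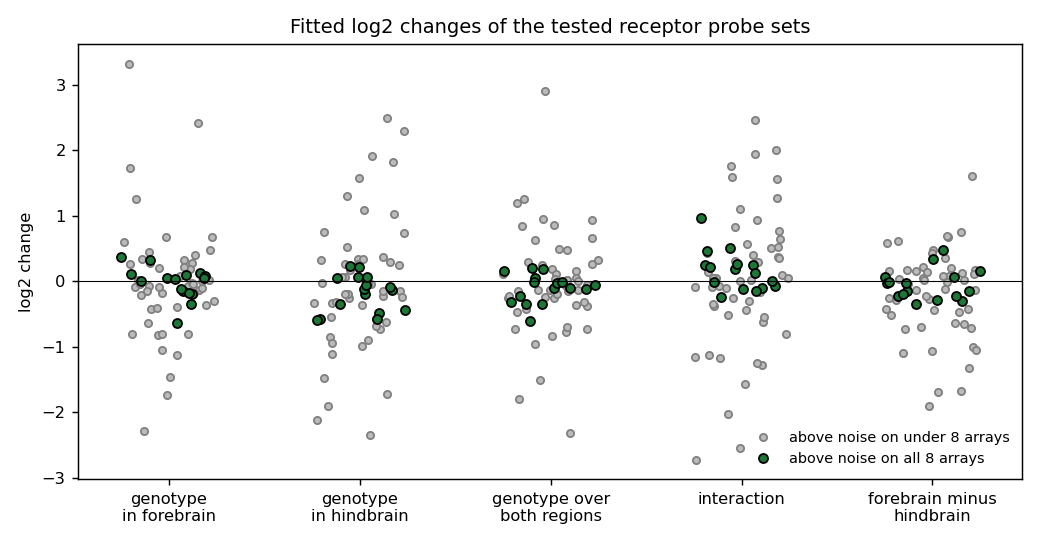
Fitted log2 change (vertical axis) of the 67 tested receptor probe sets in the 5 contrasts (horizontal axis); green points are the 16 probe sets above noise on all 8 arrays and grey points the others, spread sideways for sight. The green points stay between -0.64 and 0.96, while grey points reach 3.32.

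Chrna7, the subunit of the homomeric, calcium-permeable nicotinic receptor, was the receptor with all Pax6 homozygous arrays above all wild-type arrays. With S53987_at it was at 1438 and 147 in Pax6 homozygous forebrain against 30 and 0.4 in wild-type forebrain, and at 641 and 274.5 in Pax6 homozygous hindbrain against 120 and 4.5 in wild-type hindbrain. Only 3 of these values were above noise. The log2 change over both regions was 2.91 ± 0.83 (limma adjusted p = 0.801), with 3.32 ± 1.18 in the forebrain parts (adjusted p = 1) and 2.5 ± 1.18 in the hindbrain parts (adjusted p = 0.989). Without the first Pax6 homozygous forebrain array the forebrain change was 1.68. The other Chrna7 probe sets did not show the separation: L31619_at was at 652 and 291 in Pax6 homozygous forebrain against 460.1 and 424 in wild-type forebrain, and at 444 and 549.7 in Pax6 homozygous hindbrain against 536 and 415 in wild-type hindbrain. L31619_g_at was never above noise.

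3 receptors were lower on all Pax6 homozygous arrays. Adrb3, the beta-3 adrenergic receptor of fat tissue, was at 323 and 184 in Pax6 homozygous forebrain against 512 and 551 in wild-type forebrain, and at 139.5 and 128 in Pax6 homozygous hindbrain against 728 and 340.4 in wild-type hindbrain. It was above noise on 3 wild-type arrays, and its log2 change was -1.51 ± 0.44 over both regions (limma adjusted p = 0.801), -1.12 ± 0.62 in forebrain and -1.90 ± 0.62 in hindbrain. Without the second Pax6 homozygous forebrain array the forebrain change was -0.72. Gria4, an AMPA subunit, had a log2 change of -2.32 ± 0.68 over both regions (S94371_at), with -2.29 ± 0.96 in forebrain and -2.34 ± 0.96 in hindbrain. Its values, 30.3 and -6.3 in Pax6 homozygous forebrain against 174 and 290.4 in wild-type forebrain, and -9.7 and 85 in Pax6 homozygous hindbrain against 448 and 224 in wild-type hindbrain, never exceeded noise. The other Gria4 probe sets were also never above noise and did not separate the genotypes: M36421_s_at gave 0.04 ± 0.56 over both regions, and S94371_g_at was too dim for the test. Chrm4, a Gi-coupled muscarinic receptor, was at 319 and 204 in Pax6 homozygous forebrain against 576 and 344 in wild-type forebrain, and at 292 and 183 in Pax6 homozygous hindbrain against 445 and 395 in wild-type hindbrain. Chrm4 was above noise on 2 arrays with this probe set (Z49748exon_at), and its log2 change over both regions was -0.83 ± 0.41 (limma adjusted p = 0.928). The other Chrm4 probe set (M16409_at) lay between -280 and -82 and did not separate the genotypes. Gria1, also an AMPA subunit and never above noise, had the next p over both regions, with -1.79 ± 0.87.

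In hindbrain the smallest p-values after Adrb3 belonged to Drd4, a D2-like dopamine receptor, and Grin3a, the glycine-binding NMDA subunit that lowers calcium entry. Grin3a was at 559.9 and 419.8 in Pax6 homozygous hindbrain against 130.3 and 127 in wild-type hindbrain (AF061945_at), a log2 change of 1.91 ± 0.72 (limma adjusted p = 0.989). In forebrain it was at 417 and 131 in the Pax6 homozygous group against 472 and 279.7 in the wild-type group, and the interaction was -2.55 ± 1.02 (adjusted p = 1). Without the second Pax6 homozygous forebrain array the interaction was -1.71. The further Grin3a probe sets gave 394 and 261 in Pax6 homozygous hindbrain against 249.7 and -7.1 in wild-type hindbrain (U29873_at), and 188 and 231 in the Pax6 homozygous against 451 and 152 in the wild-type group (AF061945_g_at), which overlapped. Drd4 was at 304 and 349 in Pax6 homozygous hindbrain against -174 and 95 in wild-type hindbrain, with 1 value above noise. Its log2 change was 2.30 ± 0.82 in hindbrain and the interaction -2.72 ± 1.15 (adjusted p = 1).

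The remaining smallest p-values in forebrain belonged to a second Grin1 probe set (S39221_at, 2.43 ± 1.17), Glra1 (X55246_at, 1.74 ± 0.98), neither above noise on any array, and Chrm3 (M16407_at, above noise on 5 arrays, -1.04 ± 0.62). The last moved with single wild-type forebrain arrays: Chrm3 was at 203 and 358 in Pax6 homozygous forebrain against 329 and 938 in wild-type forebrain, and the change was -0.29 without the second and -1.80 without the first wild-type array. In the interaction the remaining ones were Chrm3 (-1.57, or -0.81 without the second wild-type forebrain array), Htr5b (2.01), Gabre (1.94) and the same Grin1 probe set (2.46, or 3.71 without the second wild-type hindbrain array), all with an adjusted p of 1 in limma. Gabre and Htr5b also hung on single arrays, with interactions of 0.63 without the first and 3.25 without the second wild-type forebrain array for Gabre, and 3.07 without the first and 0.95 without the second Pax6 homozygous hindbrain array for Htr5b.

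**Figure D5:**
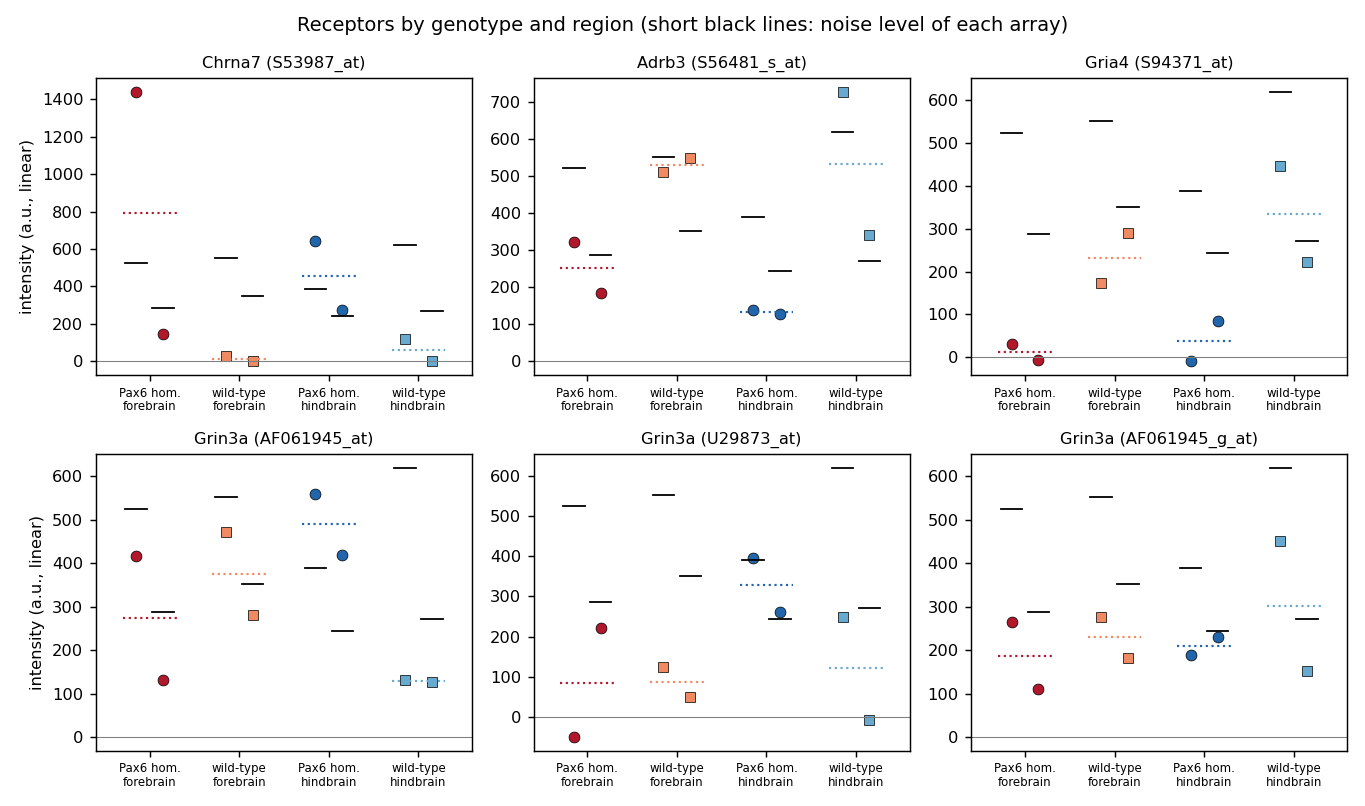
Intensity (vertical axis, linear, arbitrary units, scaled per panel) in the 4 groups for 1 probe set each of Chrna7, Adrb3 and Gria4 and 3 of Grin3a; points are arrays, dotted lines means of 2 arrays and short black lines array noise. Chrna7 is higher and Adrb3 and Gria4 lower on all Pax6 homozygous arrays, mostly under noise, and the 3 Grin3a panels differ from each other.

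Counting detection by group gave the Pax6 homozygous hindbrain the most receptors. Both arrays were above noise for 21 receptor probe sets in Pax6 homozygous forebrain against 17 in wild-type forebrain, and for 37 in Pax6 homozygous hindbrain against 23 in wild-type hindbrain. As shares of the 133 these were 15.8% against 12.8% and 27.8% against 17.3%, beside 48.5% against 47.0% and 54.9% against 47.2% of all probe sets. The 2 Pax6 homozygous hindbrain arrays also had lower noise, 389 and 243, than the wild-type hindbrain arrays as a pair, at 619.8 and 271, and a larger share of all probe sets above it, 56.4% and 61.2% in the Pax6 homozygous against 48.8% and 57.6% in the wild-type group. In forebrain the shares per array were 50.3% and 55.7% in the Pax6 homozygous against 50% and 52.4% in the wild-type group. With 1 noise level of 399.8 for every array, a setting chosen after seeing the data, the counts were 18 in Pax6 homozygous forebrain against 21 in wild-type forebrain. They were 27 in Pax6 homozygous hindbrain against 22 in wild-type hindbrain. Of all probe sets, 48.4% against 47.8% in forebrain and 51.5% against 48.8% in hindbrain then had both arrays above. The order of the forebrain groups thus turned round for receptors.

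Above noise on both Pax6 homozygous hindbrain arrays and on no wild-type hindbrain array were 6 of 133 receptor probe sets, beside 1.57% of all probe sets, for Chrna1, Chrna7, Grin2d, Htr5a and, with 2 probe sets, Grin3a. Adrb3 showed the opposite pattern, beside 0.206% of all. Chrna1, the acetylcholine-binding muscle subunit, was at 708 and 378 in Pax6 homozygous hindbrain against 612 and 263 in wild-type hindbrain. Grin2d, an NMDA subunit of embryonic brainstem, was at 499 and 399 in Pax6 homozygous hindbrain against 317 and 227 in wild-type hindbrain, and Htr5a, a Gi-coupled serotonin receptor, at 546 and 361 in the Pax6 homozygous against 579 and 211 in the wild-type group. For Chrna1 and Htr5a the intensities overlapped between genotypes, so the count rests on the noise levels. Their hindbrain log2 changes were 0.37 ± 1.30 for Chrna1, 0.73 ± 0.58 for Grin2d and 0.35 ± 0.62 for Htr5a. Between regions, 5 probe sets were above noise on both Pax6 homozygous hindbrain arrays and on no Pax6 homozygous forebrain array, beside 2.30% of all, for Chrna1, Grin2d, Grin3a with 2 and Grin2c. Grin2c, an NMDA subunit of cerebellum in the adult, was at 486 and 278 in Pax6 homozygous forebrain against 548 and 564 in Pax6 homozygous hindbrain (U08259_r_at). With the single noise level, 2 probe sets were above on both Pax6 homozygous and no wild-type hindbrain array, beside 1.02% of all: Grin3a (AF061945_at), 1 of the 6, and Grin2c. Adrb3 no longer showed the opposite pattern in hindbrain, where Gabre did. Of the 5 between regions in the Pax6 homozygous groups 0 were left, and Chrm3 (M16407_at) took their place, beside 1.49% of all. Gabre was also above on both wild-type hindbrain and no wild-type forebrain array, beside 1.01% of all. In forebrain Adrb3 was above on both wild-type and no Pax6 homozygous array, beside 0.229% of all.

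More receptors were separated by array number than by genotype or region. All 4 first arrays were above all 4 second arrays for 17 of 67 receptors (25.4%), beside 14.0% of all probe sets tested, and below them for 0, beside 5.10%. Of the 17, 6 were among the 16 probe sets above noise on all arrays. The labels do not say what first and second stand for. Noise was also higher on first arrays, 389 to 619.8, than on second arrays, 243 to 352.

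Genes that act with receptors were also read. Of 61 probe sets for receptor scaffolds and clustering proteins, 16 (26.2%) were above noise on all arrays, beside 42.8% of all probe sets. For transmitter synthesis, transport and breakdown this held for 11 of 53 (20.8%). For G proteins, kinases and arrestins it held for 27 of 62 (43.5%), near the share of all probe sets. In each of the 3 lists, 0 probe sets passed in forebrain, in hindbrain or between regions. The scaffold members with the smallest p were Homer1 (AB007688_s_at, above noise on no array, 2.54 ± 1.02) and Agrn (M64780_at, 0.50 ± 0.23) by genotype in forebrain, Dlgap4 (U67140_at, -1.31 ± 0.38) and Dlg1 (1.30 ± 0.55) by genotype in hindbrain, and Camk2d (rc_AA894330_s_at, -0.41 ± 0.19) and Agrn (M64780_at, -0.33 ± 0.16) between regions. Other probe sets of these genes gave other values: the 5 further ones of Homer1 lay between -0.35 and 0.31 in forebrain, and Agrn (M64780_g_at) was at -0.01 there. In hindbrain Dlgap4 (U67140_g_at) was at 0.20 ± 1.69, and the further Dlg1 probe sets were too dim for the test. Between regions Camk2d was at 1.37 ± 0.72 with J05072_at and -0.22 ± 0.53 with rc_AI009268_at, both above noise on no array. Agrn (M64780_g_at) was at -0.17 ± 0.10 between regions. In the transmitter list, Ddc, the decarboxylase that makes dopamine and serotonin, was at -2.83 ± 0.60 in forebrain minus hindbrain (limma adjusted p = 0.0681), followed by Slc18a3, the vesicular acetylcholine transporter (X80395cds_s_at, -1.12 ± 0.32). By genotype that list was led in forebrain by Ddc (2.5 ± 0.85) and Glul (rc_AA852004_s_at, 0.58 ± 0.33). In hindbrain it was led by Slc18a3 (U09211_at, -3.08 ± 1.14) and Gad1, a GABA-making enzyme (-1.23 ± 0.51). Ddc and Gad1 were above noise on 4 arrays each, and Slc18a3 (U09211_at) on 7. Ddc had a mean of -320.5 (SD 644.0) in wild-type forebrain, and Slc18a3 (U09211_at) 313.8 (SD 962.6) in Pax6 homozygous hindbrain. Values under the floor entered both, so the size of their changes depends on the floor of the log scale. The 3 further Glul probe sets lay between 0.03 and 0.21 in forebrain. The Slc18a3 probe sets differed from each other: X80395cds_s_at was at -0.09 ± 0.46 by genotype in hindbrain, and U09211_at at 0.70 ± 0.80 between regions. Among signalling genes, Rgs4, which shortens G protein signals, was at -1.99 ± 0.46 between regions (adjusted p = 0.0973) and Adcy2 at -1.25 ± 0.54. Plcb4 (L15556_at, -2.12 ± 0.72) and Adcy6 (1.87 ± 1.04) led by genotype in forebrain, and Prkaca (X57986mRNA_r_at, -0.73 ± 0.33) and Gnao1 (M17526_at, -0.63 ± 0.29) in hindbrain. Second probe sets gave 0.19 ± 0.71 for Plcb4, -0.15 ± 0.18 for Prkaca and -0.35 ± 0.29 for Gnao1 in those contrasts.

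Of the other cell type lists, heart muscle had 1 of 8 tested probe sets past the threshold between regions (Actc1) and neural progenitors 1 of 14 (Fabp7). Both were lower in forebrain, beside 1.51% of all probe sets that passed between regions. Negative log2 differences between regions were found for 4 of the 8 and 9 of the 14. Fabp7 was also the one marker that passed by genotype, lower in Pax6 homozygous forebrain and hindbrain. Motor neurons, blood, macrophages, mature glia and retina and lens had 0 members past the threshold in these contrasts. The mature glia list summed to between -228 and 726 on every array, a sum in which negative values offset positive ones. Of its 9 probe sets 7 were above noise on no array, 1 of them for Mag. The other Mag probe sets were above noise on 8 arrays (M22357_g_at) and 7 arrays (X06554cds_s_at).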

How the data were processed

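Each of the 8 samples, 4 groups of 2, was hybridised to its own array. Per the labels' protocols, poly(A) RNA was copied from an oligo(dT) primer into biotin-labelled cRNA. The authors deposited linear intensity values, negative ones included, with 1 value for each probe set on an array. Which software and scaling made them is not given in the sources used here. Trimmed array means of 2504.05 to 2504.79 show that a common scale was already set, and it was kept. Gene symbols came from the platform annotation, which can be old; all 88 receptor symbols are kept by RefSeq.

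Intensities under the pooled 25th percentile (45.9) were raised to that value before log2 transformation. Probe sets that exceeded 255, the 40th percentile of all arrays pooled, on 2 or more arrays, 5881 of 8740 that are no controls, entered limma 3.58.1 (R 4.3.3; lmFit, eBayes with trend, 4 residual and 4.63 prior degrees of freedom). P-values were two-sided, adjusted by Benjamini-Hochberg over all 5881, with a threshold of 0.05; ± beside a log2 value is the standard error. Of the receptors 67 probe sets were tested and 66 were too dim. A median over tested probe sets leaves those out. Tables were made with Python 3.11.15, and the model was tested on simulated data. The number of arrays limits the precision of every value.

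Named were receptors above noise on all arrays, those above on both arrays of one group and none of another, and the 6 smallest p-values of each contrast; of other lists, members past the threshold and, for lists of genes that act with receptors, the 2 smallest p-values. The receptor family, lists and tests were proposed with earlier results of these data known, and the members then follow from symbols alone. Alternatives were another floor, filter, normalization, variance trend, array subset, replicate block, noise level, and leaving out each array.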

Additional observations from a re-analysis of the deposited data

How the results depend on the processing

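No receptor passed in any of the 5 contrasts under the alternatives run, with 1 exception. With the floor at the pooled median, 1 receptor, Grin2c (U08259_r_at), passed in hindbrain by genotype (log2 change 0.16, limma adjusted p = 0.0416) and between regions, where the count was also 1 (log2 difference -0.08, adjusted p = 0.0345). That floor lies at 497, so all its values but the 2 from Pax6 homozygous hindbrain were set equal. The smallest adjusted p of a receptor over all alternatives was 0.567 in forebrain, 0.144 over both regions and 0.209 in the interaction. Without a single array the counts ranged from 0 to 0. Of 382 alternative values of 30 named log2 changes, 370 kept direction and side of the threshold, 0 reversed and 12 became 0 under the higher floor. The Chrna3 difference between regions ran from -1.65 to -0.99, with adjusted p between 0.0815 and 0.632.

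The count above noise on all arrays depends on the level chosen. It was 9 at the 2.5th percentile, 32 at the 10th and 7 at 3 times the 5th, and 15 with 1 pooled level, against 16. The count above noise on no array was 40 at the 10th percentile and 117 at 3 times the 5th, against 76. Leaving out each array gave 16 to 18 and 76 to 82. The first and second arrays share numbers across groups, and deviations of same-numbered arrays correlated (r from 0.275 to 0.465), but the labels do not say what the number marks. With the number as a replicate block, 0 receptors passed in each contrast, and the adjusted p of Chrna3 between regions was 0.0815.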
